A study of Mus musculus with 18 samples.

Results

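De novo lipogenesis turns acetyl-CoA into fatty acids, and 8 of its genes were followed across 3 mouse adipose tissues: Acly, Acaca, Acacb, Fasn, Scd1, Scd2, Srebf1 and Mlxipl. They were chosen by name, as the enzymes from citrate cleavage to desaturation and the transcription factors best known for controlling them. All 8 were found by symbol among the 54347 rows of the table, and all 8 were among the 18728 genes that passed the filter on low counts. Polyadenylated RNA was sequenced from the brown fat between the shoulder blades (interscapular, iBAT) and from 2 white depots, the inguinal (iWAT) and the epididymal (eWAT). There were 6 mice of the C57BL/6N background, 12 weeks old and kept on chow. The 3 knockout (ko) mice carried a deletion that includes exon 1 of the long noncoding RNA gene Gm15551 (ΔGm15551), in all their cells, and the 3 wild type (wt) mice lacked it. Each mouse gave all 3 tissues, which makes 18 libraries in 6 groups of 3. Whole tissue was used, so fewer adipocytes and less RNA per adipocyte cannot be told apart.

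Cytosolic citrate is cleaved to acetyl-CoA by ATP citrate lyase (Acly), and acetyl-CoA is carboxylated to malonyl-CoA by acetyl-CoA carboxylase. The carboxylase encoded by Acaca acts in the cytosol, while that of Acacb sits at the outer mitochondrial membrane, where malonyl-CoA restrains the entry of fatty acids for oxidation. Fatty acid synthase (Fasn) builds palmitate, and stearoyl-CoA desaturases (Scd1, Scd2) introduce a double bond into saturated chains. Srebf1 encodes the insulin-responsive factor SREBP1 and Mlxipl the glucose-responsive factor ChREBP. Brown adipose tissue is known for making fatty acids and burning them at the same time. In GRCm38 the genes lie on 3 chromosomes: Acly (chr11:100476353-100528000), Acaca (chr11:84129672-84401651), Fasn (chr11:120805846-120824547) and Srebf1 (chr11:60199089-60222581) on chromosome 11, Acacb (chr5:114146535-114250761) and Mlxipl (chr5:135089890-135138382) on chromosome 5, and the neighbours Scd1 (chr19:44394455-44407879) and Scd2 (chr19:44293674-44306864) on chromosome 19.

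RefSeq promoter windows, from 250 bases before to 50 bases after a start site in GRCm38.p6, were found for 6 of the 8 genes, with 9 windows in all. The Fasn window is shown because its enzyme builds the chain, the Acly window because this gene had the largest fold of the 8 between iBAT and eWAT, and both Mlxipl windows because of the 9 only they hold the E-box or the sterol element searched for. Capitals mark matches on either strand to TCACNCCAC (a sterol regulatory element), CACGTG (an E-box), CCAAT or GGGCGG (a GC box).
Fasn, chr11:120824498-120824797, minus strand: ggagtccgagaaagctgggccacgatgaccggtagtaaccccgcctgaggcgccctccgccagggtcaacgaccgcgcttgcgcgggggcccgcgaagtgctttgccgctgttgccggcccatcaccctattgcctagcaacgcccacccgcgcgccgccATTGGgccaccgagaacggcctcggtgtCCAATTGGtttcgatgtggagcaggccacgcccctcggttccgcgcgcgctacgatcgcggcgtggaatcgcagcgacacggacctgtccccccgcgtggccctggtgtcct
Acly, chr11:100527951-100528250, minus strand: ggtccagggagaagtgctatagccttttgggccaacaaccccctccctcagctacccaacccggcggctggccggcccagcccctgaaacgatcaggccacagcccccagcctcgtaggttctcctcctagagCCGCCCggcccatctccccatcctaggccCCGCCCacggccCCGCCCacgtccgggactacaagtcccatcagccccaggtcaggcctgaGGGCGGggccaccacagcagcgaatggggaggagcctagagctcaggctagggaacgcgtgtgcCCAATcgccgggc
Mlxipl window 1, chr5:135089640-135089939, plus strand: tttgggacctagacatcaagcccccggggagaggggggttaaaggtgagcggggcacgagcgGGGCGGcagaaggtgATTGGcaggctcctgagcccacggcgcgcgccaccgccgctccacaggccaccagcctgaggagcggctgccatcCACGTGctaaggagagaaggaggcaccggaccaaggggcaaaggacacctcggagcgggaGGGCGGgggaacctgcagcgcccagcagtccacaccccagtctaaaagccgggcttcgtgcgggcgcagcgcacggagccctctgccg
Mlxipl window 2, chr5:135106641-135106940, plus strand: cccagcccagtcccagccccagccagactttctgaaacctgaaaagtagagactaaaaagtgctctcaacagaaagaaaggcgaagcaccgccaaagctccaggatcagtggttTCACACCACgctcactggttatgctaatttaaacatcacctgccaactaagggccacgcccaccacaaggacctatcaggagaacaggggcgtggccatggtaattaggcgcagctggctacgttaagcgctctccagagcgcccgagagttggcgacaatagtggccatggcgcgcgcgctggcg
The Fasn window held 3 CCAAT matches, of which those starting at -62 and -59 overlap on opposite strands, and the Acly window held 4 GC boxes and 1 CCAAT. The Mlxipl windows start 17001 bases apart. The first held an E-box at -98, and the second was the only one of the 9 with the sterol regulatory element, at -136. Over all 32851 windows of the same length, the sterol element was found in 1.24%, the E-box in 7.15%, CCAAT in 37.4% and the GC box in 35.7%. A match describes letters and not binding. The counts were summed per gene, so the transcripts that begin at the separate starts of Mlxipl or Srebf1 are not separated in what follows.

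Total counts per library lay between 14997901 and 34389586. Mitochondrially encoded genes took 22.9% to 26.99% of them in the brown and 3.77% to 9.64% in the white libraries. Gm15551 had 40 to 316 counts in the wild type libraries and 0 to 4 in the knockout libraries. The labelled tissues carried their markers: 7 brown adipocyte markers had a summed CPM (counts scaled to a common library size with TMM factors) of 7330 to 12828 in the iBAT libraries, 27.7 to 325 in the iWAT libraries and 7.82 to 22.95 in the eWAT libraries. In 4 libraries, genes of another tissue stood out most. Lymph node markers summed to 815 CPM in iWAT wt 3 and 340 CPM in iWAT ko 2, against 3.48 to 18.7 CPM in the other iWAT libraries. Skeletal muscle markers reached 4224 CPM in iWAT ko 1, and epididymis markers 4823 CPM in eWAT ko 3. At lower levels 2 more libraries stood apart. Epididymis markers were at 16.4 CPM in eWAT wt 1, against 0.0858 to 2.17 in the remaining 4 eWAT libraries. Skin markers were at 15.7 CPM in iWAT ko 3, 13.05 in iWAT ko 2 and 7.45 in iWAT wt 3. In the other 3 iWAT libraries they were at 3.17 to 4.46 CPM, and the keratins Krt5 and Krt14 had 0 counts. The skin markers Krt10 (86 to 104 counts against 76 to 128) and Lor (4 to 13 against 6 to 9) were not raised. Which tissue the keratins came from was not tested. The same list was at 80.0 CPM in eWAT ko 3. Fits without both eWAT libraries with epididymis genes, and without the 3 iWAT libraries with keratin genes, are given where they change a call. The summed level of 6 adipocyte markers was also lowest in iWAT wt 3 (7262 CPM, tissue median 18511) and eWAT ko 3 (9440 CPM, tissue median 20544). Macrophage markers were at 370 to 564 CPM in iWAT ko 1, wt 3 and ko 2, against 142 to 160 in the other 3 iWAT libraries. In eWAT they were at 71.7 to 265 CPM and in iBAT at 35.1 to 79.4. Mesothelium markers were at 23.6 to 52.9 CPM in iWAT wt 3, ko 2 and ko 3, against 1.72 to 2.44 in the other iWAT libraries. Among them Krt19 had 685 to 1379 counts, against 33 to 45.

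In iBAT the 8 genes together made up 6.02% to 8.73% of all counts. Their share was 0.868% to 6.05% in the iWAT libraries and 1.52% to 3.99% in the eWAT libraries. Fasn and Scd1 carried most of this, at a mean of 5.91% ± 0.9004 (SD, n = 6) of the counts in iBAT. Per kilobase of annotated exon, Scd1 was the highest of the 8 in every tissue, with 9522 ± 1871 CPM per kb in iBAT, 3475 ± 2112 in iWAT and 3686 ± 1071 in eWAT (SD, n = 6). Fasn followed at 3777 ± 978, 1033 ± 519 and 387 ± 213 CPM per kb, and was below Scd1 in 6 of 6 libraries of each tissue. Acly came next by its mean in all 3 tissues, although in eWAT it exceeded Scd2 in 4 of 6 libraries only and their ranges overlapped, and the remaining 5 genes lay between 91.7 and 255 CPM per kb in iBAT by their means. Among these, Acaca and Acacb lay above Mlxipl, Scd2 and Srebf1 in iBAT, but their own order was not resolved. They were at 245 ± 24.3 and 255 ± 30.1 CPM per kb in iBAT, with Acacb the higher in 3 of 6 libraries. With the longest transcript in place of all exons, Acaca was at 440 ± 43.6 and Acacb at 279 ± 33.0 CPM per kb, and Acaca was higher in 6 of 6.

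**Figure D1:**
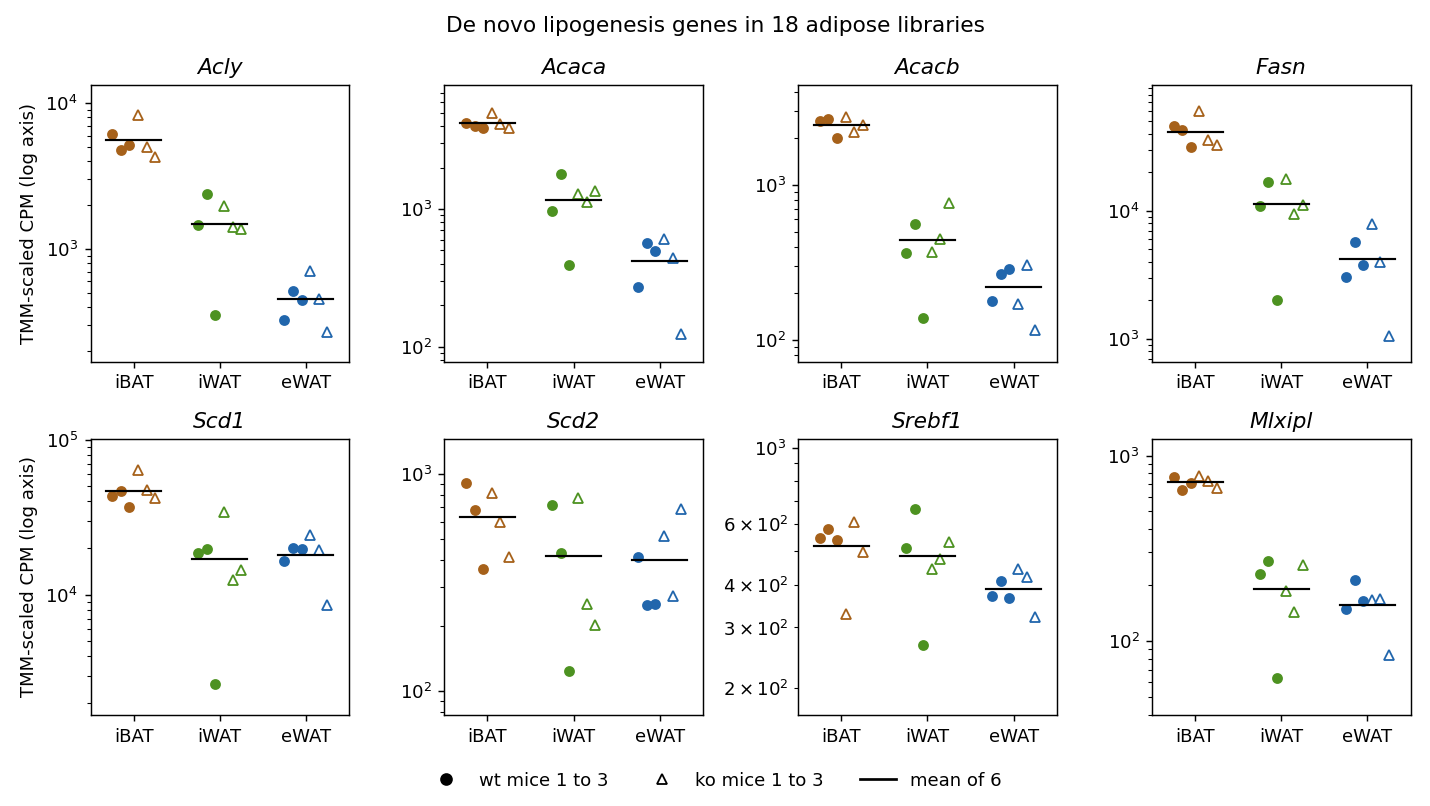
TMM-scaled CPM of the 8 genes on log axes, by tissue, with filled circles for wild type mice, open triangles for knockout mice (mice 1 to 3 from left to right) and a line for the mean of 6 libraries. On this scale the iBAT libraries lie above all white libraries for Acly, Acaca, Acacb, Fasn, Scd1 and Mlxipl, and overlap with them for Scd2 and Srebf1. The share of all genes that lie apart in this way is not given here. As a share of all counts Scd1 overlaps, at 2.72% or more in iBAT, up to 3.62% in iWAT and up to 2.78% in eWAT.

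Tissues were compared to ask where the pathway is most expressed. Of the 8 genes, 6 were higher in iBAT than in iWAT and the same 6 were higher in iBAT than in eWAT (edgeR, adjusted p under 0.05): Acly, Acaca, Acacb, Fasn, Scd1 and Mlxipl. None of the 8 was called lower, a direction that held 30.3% of all genes against iWAT and 30.2% against eWAT, and Scd2 and Srebf1 were called in neither. Of all genes tested, 24% were called higher in iBAT than in iWAT and 24.4% higher than in eWAT. The median log2 difference of the 8 genes was 1.87 for iBAT minus iWAT and 2.74 for iBAT minus eWAT, beside -0.14 and -0.17 over all genes tested. Acly and Acaca were also higher in iWAT than in eWAT, a direction in which 5.7% of all genes were called (4.5% were called lower), and the median of the 8 genes was 0.64 beside 0.01 over all genes. These 3 comparisons share their libraries.

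The size of the differences depended on the scaling between libraries. TMM factors set the iBAT libraries apart from the white ones. With library totals in their place, the median of all genes moved to -0.95 for iBAT minus iWAT and -1.04 for iBAT minus eWAT, and the share of called genes that were higher in iBAT fell from 44.2% to 10.1% and from 44.7% to 10.7%. On that scale Acly, Acaca, Acacb, Fasn and Mlxipl were still called higher in iBAT in both comparisons, with log2 differences of 1.09 to 1.71 against iWAT and 1.35 to 2.78 against eWAT. Scd1 was no longer called (0.72, edgeR adjusted p = 0.0764, and 0.50, adjusted p = 0.208), and Srebf1 was called lower in iBAT (-0.68, adjusted p = 0.00129, and -0.45, adjusted p = 0.0185). Relative to the median of all genes, Scd1 then stood at 1.68 and 1.54 and Srebf1 at 0.28 and 0.60.

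**Figure D2:**
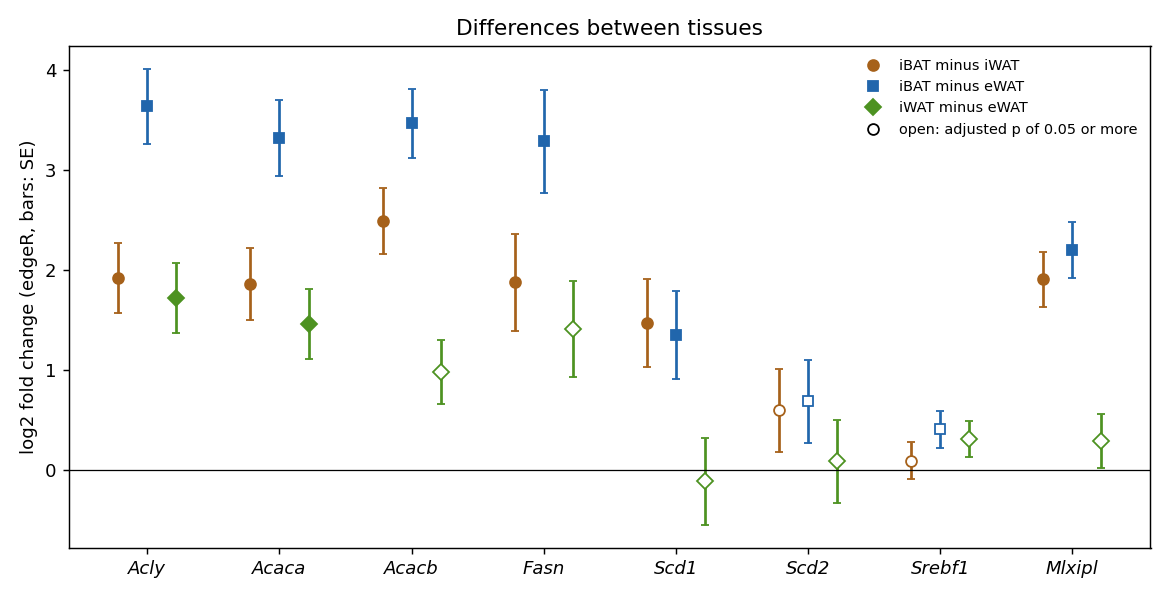
Log2 fold changes of the 8 genes between tissues from edgeR with TMM scaling, with bars for the standard error, filled symbols for an adjusted p under 0.05 and open symbols otherwise. Acly and Acaca step down from iBAT over iWAT to eWAT with filled symbols throughout and Acacb and Fasn with an open one for the last step, whereas Scd1 and Mlxipl differ between iBAT and the white tissues and by -0.11 and 0.29, with open symbols, between iWAT and eWAT, where Mlxipl was called without all 4 libraries with genes of another tissue (0.55).

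Acly, which supplies cytosolic acetyl-CoA, ranged from 4266 to 8335 CPM in iBAT (median 5093), from 354 to 2368 in iWAT (median 1439) and from 269.8 to 706 in eWAT (median 449.8). No iBAT library overlapped with a white one, and iWAT lay above eWAT in 5 of 6 mice. It was 3.78-fold higher in iBAT than in iWAT (log2 1.92, SE 0.35, edgeR adjusted p = 0.00022) and 12.4-fold higher than in eWAT (log2 3.63, SE 0.38, adjusted p = 4.33e-07). Between iWAT and eWAT it differed 3.28-fold (log2 1.72, SE 0.35, adjusted p = 0.00538). It was called in this last comparison after leaving out any 1 mouse, but not within wild type (adjusted p = 0.250) or knockout (adjusted p = 0.136) libraries alone.

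The cytosolic carboxylase gene Acaca spanned 3881 to 4980 CPM in iBAT, against 395 to 1799 in iWAT and 124 to 605 in eWAT, with medians of 4074, 1205 and 472. It fell within a narrow band in iBAT, and the white libraries were all lower. The differences were 3.63-fold against iWAT (log2 1.86, SE 0.36, edgeR adjusted p = 0.000334), 9.97-fold against eWAT (log2 3.32, SE 0.38, adjusted p = 1.29e-06) and 2.75-fold between iWAT and eWAT (log2 1.46, SE 0.35, adjusted p = 0.0157). The last was not called without ko 2 (adjusted p = 0.0737), wt 1 (0.0585) or wt 2 (0.0606). Of the 31-base words in Acaca transcripts, 33.5% occur in another gene, mostly the processed pseudogene Gm5182 (31.7%), which held 0 to 69 counts per library.

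Acacb, the mitochondrial carboxylase, showed the largest difference of the 8 between iBAT and iWAT. Its levels were 2025 to 2770 CPM in iBAT (median 2518), 139 to 771 in iWAT (median 407) and 116 to 306 in eWAT (median 223). It was 5.60-fold higher in iBAT than in iWAT (log2 2.48, SE 0.33, edgeR adjusted p = 8.87e-06) and 11.03-fold higher than in eWAT (log2 3.46, SE 0.34, adjusted p = 2.54e-07). Between the white tissues the log2 difference of 0.98 (SE 0.32) did not pass, with an adjusted p of 0.0583. It was called under 6 of 22 alternatives. Among them were DESeq2 (adjusted p = 0.0138), the edgeR fit without the lymph node libraries (0.0117) and that with library totals (0.90, adjusted p = 0.0474).

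Fasn, the synthase, was among the most abundant messages of the brown tissue. It held 31635 to 59924 CPM in iBAT (median 39024), 2031 to 17752 in iWAT (median 10935) and 1063 to 7886 in eWAT (median 3859). The highest iBAT library was ko 1 and the lowest white libraries were iWAT wt 3 and eWAT ko 3, which are also those with the lowest adipocyte markers. Fasn was 3.68-fold higher in iBAT than in iWAT (log2 1.88, SE 0.49, edgeR adjusted p = 0.00365) and 9.75-fold higher than in eWAT (log2 3.29, SE 0.51, adjusted p = 4.2e-05). Within wild type or knockout libraries alone the first difference was of like size (2.02 and 1.76) but missed the threshold (adjusted p = 0.0802 and 0.0849). For iWAT minus eWAT the log2 value was 1.41 (SE 0.48, adjusted p = 0.0715), and it passed under 7 of 22 alternatives. Among these were DESeq2 (adjusted p = 0.0103), limma voom (adjusted p = 0.00175) and edgeR with library totals (1.32, adjusted p = 0.0454). It also passed without the 2 lymph node libraries (1.74, adjusted p = 0.0160) and without the 3 iWAT libraries with keratin genes (1.85, adjusted p = 0.0273).

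The desaturases differed in abundance and in pattern. Scd1, the main adipose isoform, lay at 36556 to 63592 CPM in iBAT, at 2656 to 34031 in iWAT and at 8594 to 24151 in eWAT, with medians of 44967, 16571 and 19537. Unlike the enzymes upstream, its mean was not lower in eWAT than in iWAT, and iWAT lay above eWAT in 3 of 6 mice. With TMM it was 2.76-fold higher in iBAT than in iWAT (log2 1.47, SE 0.44, edgeR adjusted p = 0.00984) and 2.55-fold higher than in eWAT (log2 1.35, SE 0.44, adjusted p = 0.0154). The second call was lost without ko 2 (adjusted p = 0.0506), without wt 1 (adjusted p = 0.0548) and without both eWAT libraries with epididymis genes (1.15, adjusted p = 0.0571), and both were lost with library totals. Neither passed within 1 genotype, with adjusted p = 0.153 in wild type and 0.112 in knockout mice for iBAT against iWAT, and 0.290 and 0.0706 for iBAT against eWAT.

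Scd2 was far lower, at 365 to 908 CPM in iBAT (median 642), 124 to 776 in iWAT (median 341) and 249.7 to 688 in eWAT (median 345). The tissues overlapped, although iBAT exceeded iWAT in 6 of 6 mice. The log2 differences were 0.60 (SE 0.41, edgeR adjusted p = 0.235) for iBAT minus iWAT, 0.69 (SE 0.42, adjusted p = 0.175) for iBAT minus eWAT and 0.09 (SE 0.42, adjusted p = 0.923) for iWAT minus eWAT. Limma voom gave an adjusted p of 0.00365 for the second, and the fit without all 4 libraries with genes of another tissue 0.0334. Without the 3 iWAT libraries with keratin genes the first difference was -0.062 (adjusted p = 0.930). Mice wt 1 and ko 1 held the 2 highest values in iBAT (908 and 816 CPM) and iWAT (721 and 776 CPM), and in eWAT (414 and 516 CPM) they were exceeded by ko 3 alone (688 CPM), the library with epididymis genes. Scd3, which shares sequence with both desaturases, had 189 counts in that library and at most 13 in the iBAT and iWAT libraries.

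The transcription factors parted as well. Mlxipl was tightly held in iBAT, from 650.2 to 772 CPM (median 719), and lower in iWAT (63.3 to 270, median 208) and eWAT (83.5 to 212, median 165). It was 3.74-fold higher in iBAT than in iWAT (log2 1.90, SE 0.28, edgeR adjusted p = 2.53e-05) and 4.59-fold higher than in eWAT (log2 2.20, SE 0.28, adjusted p = 5.05e-06), with no overlap. Between iWAT and eWAT the log2 value was 0.29 (SE 0.27, adjusted p = 0.537), and without all 4 libraries with genes of another tissue it was 0.55 and was called (adjusted p = 0.00743).

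Srebf1 was at 328 to 607 CPM in iBAT, against 267 to 664 in iWAT and 321 to 444 in eWAT, with medians of 542, 494 and 391. These ranges overlap throughout. Its log2 difference was 0.10 (SE 0.18, edgeR adjusted p = 0.688) between iBAT and iWAT and 0.41 (SE 0.18, adjusted p = 0.0719) between iBAT and eWAT. The second passed with DESeq2 (adjusted p = 0.0379) and limma voom (adjusted p = 0.00504), without the 2 lymph node libraries (adjusted p = 0.0226), without all 4 libraries with genes of another tissue (adjusted p = 0.0419), without the 3 iWAT libraries with keratin genes (adjusted p = 0.0316) and without mouse ko 1 (adjusted p = 0.0307), and both turned negative with library totals, as given above. Exons of Srebf1 share 109 bases with Rai1 on the opposite strand, and whether the counting used strand is not given in the sources used here.

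Ratios within a library need no scaling between libraries, and were used to compare the related genes. Mlxipl counts exceeded those of Srebf1 in every iBAT library (ratio 1.12 to 2.35) and were below them in every iWAT (0.238 to 0.480) and eWAT library (0.260 to 0.517). The log2 ratio was 1.93 (SE 0.22) higher in iBAT than in iWAT and 1.85 (SE 0.21) higher than in eWAT, and the two-sided exact permutation test of 6 against 6 libraries gave p = 0.00216 for each, the smallest it allows (adjusted over 9 tests, 0.00974). Acaca exceeded Acacb by 1.48 to 1.92 in iBAT, against 1.76 to 3.51 in iWAT and 1.07 to 3.55 in eWAT. Its log2 ratio was lower in iBAT than in iWAT by -0.65 (SE 0.15, exact permutation adjusted p = 0.0260), so that the brown tissue held relatively more Acacb. Scd1 counts were 48.0 to 102 times those of Scd2 in iBAT, against 21.5 to 71.8 in iWAT and 12.5 to 79.8 in eWAT, with a log2 difference of 0.95 (SE 0.31, exact permutation adjusted p = 0.0292) between iBAT and iWAT. Tissues came from the same mice, and with the mouse as a block (exact sign flips, smallest p 0.03125) each of these 4 differences had the same sign in 6 of 6 mice and was at that smallest p, which the adjustment over 9 tests took to 0.0703. The call of the Acaca to Acacb ratio was also lost without any 1 mouse but ko 3 (exact permutation adjusted p = 0.0536 to 0.0714, differences of -0.70 to -0.56), and that of Scd1 to Scd2 without ko 1, ko 2, wt 2 or wt 3 (adjusted p = 0.0714 to 0.107, differences of 0.69 to 1.02). Both calls were lost too without the lymph node libraries, without the muscle library and without all 4 libraries with genes of another tissue (exact permutation adjusted p = 0.0519 to 0.214). Without all 4 libraries with genes of another tissue, the Mlxipl to Srebf1 ratio was 1.67 higher in iBAT than in iWAT with no overlap, and its exact permutation p of 0.0238 (adjusted, 0.107) was the smallest that 6 against 3 libraries allow. Against eWAT it passed (1.74, exact permutation adjusted p = 0.0390). Without the 3 iWAT libraries with keratin genes, the differences of the 3 ratios between iBAT and iWAT were -0.87, 1.04 and 1.74, each with no overlap and at the same smallest p (adjusted, 0.0536). The other 5 of the 9 comparisons did not pass with all 18 libraries, and of these Acaca to Acacb passed between iWAT and eWAT without ko 1 (0.73, exact permutation adjusted p = 0.0476).

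**Figure D3:**
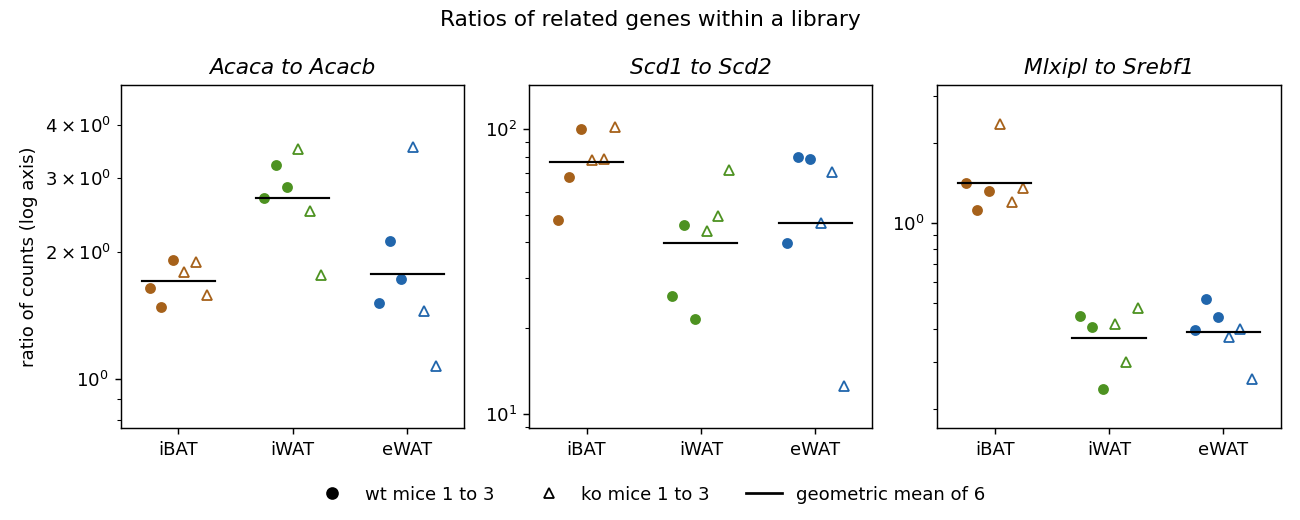
Ratios of counts of related genes in each library on log axes, with filled circles for wild type mice, open triangles for knockout mice and a line for the geometric mean of 6. The ratio of Mlxipl to Srebf1 is at 1.12 or above in every iBAT library and at 0.517 or below in every white library, while the other ratios overlap between tissues.

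Some of the genes also varied with Fasn among libraries of the same tissue. After the mean of each tissue was subtracted from log2 CPM, Fasn correlated over the 18 libraries with Acaca (Pearson r = 0.940), Acly (0.937), Scd1 (0.923), Mlxipl (0.872), Acacb (0.718), Srebf1 (0.588) and Scd2 (0.377). The summed adipocyte markers had r = 0.839 with Fasn on the same scale. Scd2 had r = 0.0019 with Acacb, 0.083 with Acaca, 0.22 with Srebf1, 0.27 with Mlxipl, 0.51 with Acly and 0.56 with Scd1. Libraries share mice and depth, and 4 of them held genes of another tissue. Over the other 14 libraries, which include eWAT wt 1 and iWAT ko 3, r with Fasn was 0.920 for Acly, 0.794 for Acaca and 0.793 for Scd1, but 0.550 for Mlxipl, 0.417 for Scd2, 0.0323 for Acacb, -0.0333 for Srebf1 and 0.280 for the adipocyte markers. In iWAT wt 3, all 8 genes were at their lowest of that tissue, and in eWAT ko 3 so were 7, with Scd2 instead at its highest. The part of the genes of another tissue and of the lower adipocyte markers in these values was not tested.

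**Figure D4:**
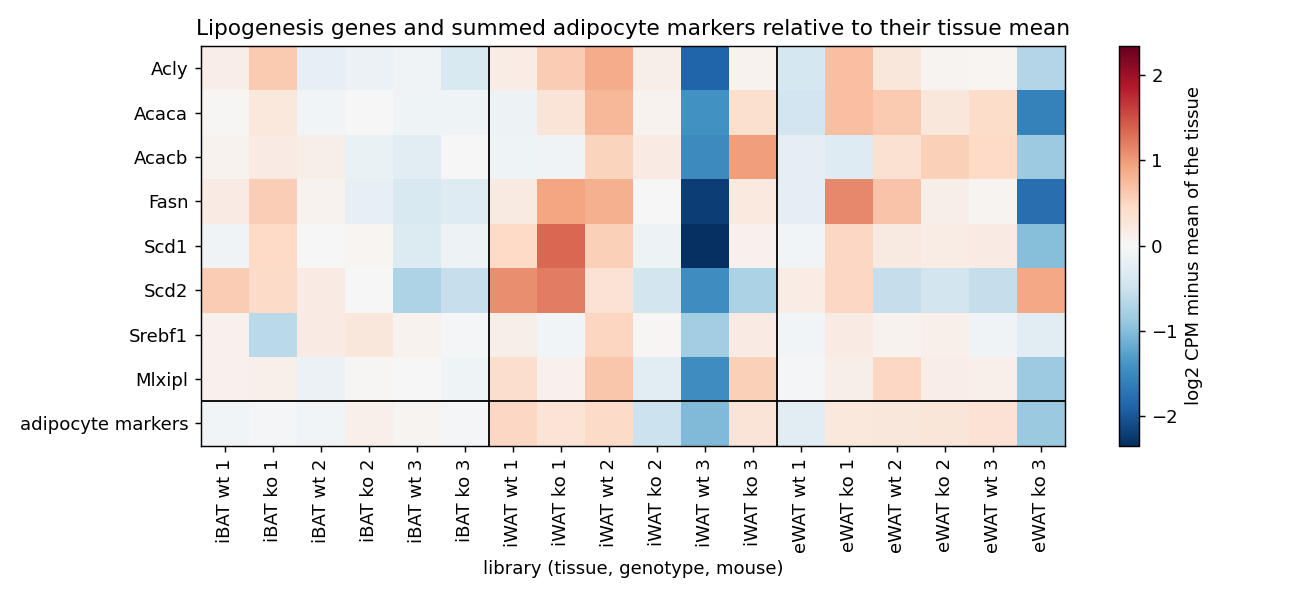
Log2 CPM of the 8 genes and of 6 summed adipocyte markers minus the mean of the 6 libraries of the same tissue, with 1 column per library and red above and blue below the mean. The columns of iWAT wt 3 and eWAT ko 3 are blue for nearly all genes and for the markers, and Scd2 departs from the other genes in eWAT ko 3.

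The genotypes were compared to ask whether the loss of Gm15551 alters the pathway. No difference was called for any of the 8 genes across tissues, within iBAT, iWAT or eWAT, or for the interaction of genotype and tissue (edgeR, adjusted p = 1 for each). Of the 8, 0 had an unadjusted p under 0.05 in any of these 5 tests, and DESeq2 and limma voom also called 0. Over all genes tested, 0.00534% were called across tissues and in eWAT, and 0% in iBAT, in iWAT and for the interaction. Across tissues the log2 differences, ko minus wt, ran from -0.08 (SE 0.22) for Mlxipl to 0.25 (SE 0.35) for Scd1, with a median of 0.13 beside 0.0049 over all genes. These standard errors treat the 18 libraries as separate samples, although each mouse gave 3 of them, so they are not the spread between mice. Within tissues the largest were 0.69 (SE 0.60) for Scd2 in eWAT, 0.58 (SE 0.44) for Acacb in iWAT and 0.57 (SE 0.65) for Scd1 in iWAT. All 3 moved with the libraries with genes of another tissue. Scd2 in eWAT was 0.37 without the epididymis library. With eWAT wt 1, which also held epididymis genes, left out as well, Scd2 was at 249.7 and 250.7 CPM in wild type and 516 and 275 CPM in knockout mice. Acacb in iWAT was 0.31 without the 2 lymph node libraries and 0.74 without all 4. Scd1 in iWAT was 0.33 without the lymph node libraries, -0.035 without the muscle library and -0.42 without all 4. Without the 3 iWAT libraries with keratin genes, Acacb was at -0.32 and Scd1 at 0.82.

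Fasn serves as the example of this spread. In iBAT it was at 45824, 42705 and 31635 CPM in the wild type mice and 59924, 35342 and 32669 CPM in the knockout mice. In iWAT the wild type values were 10809.9, 16804 and 2031 CPM and the knockout values 17752, 9417 and 11061 CPM. In eWAT they were 3072, 5691 and 3751 CPM against 7886, 3967 and 1063 CPM. The genotypes overlapped in all 3 tissues, and mouse ko 1 was highest each time. The standard errors of Fasn within a tissue, 0.71 to 0.72 on the log2 scale, rest on 1 spread shared over the tissues. The highest library was 1.89-fold the lowest in iBAT, 8.74-fold in iWAT and 7.42-fold in eWAT, so they are not the spread of each tissue. Differences of at least the order of these standard errors could go undetected at this number of mice.

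Genes around the pathway were counted by group from a list of 43, of which 41 were tested. Between iBAT and iWAT 23 were higher in iBAT and 2 lower, where 24.0% of all tested genes were higher and 30.3% lower. Between iBAT and eWAT 26 were higher and 3 lower, where the shares over all genes were 24.4% and 30.2%. Between iWAT and eWAT 6 were higher in iWAT and 2 lower, beside 5.70% and 4.50% of all genes. The counts depended on the TMM scaling. With library totals, 15 were higher and 12 lower in iBAT than in iWAT, and 19 were higher and 13 lower in iBAT than in eWAT. On that scale 7.68% of all genes were higher and 68.4% lower in iBAT than in iWAT, and 8.43% were higher and 70.3% lower than in eWAT. Of the genes that supply citrate, acetyl-CoA and NADPH, 3 of 6 were higher in iBAT than in iWAT and 5 of 6 than in eWAT, among them Acss2, which makes acetyl-CoA from acetate (log2 1.37 and 3.15, edgeR adjusted p = 0.00895 and 1.06e-05), and the pentose phosphate enzymes G6pdx and Pgd. With library totals, Acss2 was called against eWAT (2.30) and not against iWAT (0.60, adjusted p = 0.115), nor was it there without the 3 iWAT libraries with keratin genes (0.86, adjusted p = 0.113). On the same scale G6pdx was called against iWAT (0.44, adjusted p = 0.0194) and not against eWAT (0.21, adjusted p = 0.219), and Pgd was called against both (0.69 and 0.51, adjusted p = 0.0103 and 0.0452). The citrate carrier Slc25a1 and malic enzyme Me1 were called against eWAT (log2 2.10 and 1.67) but not against iWAT (0.77 and 0.31), although Slc25a1 passed there without eWAT ko 3 (adjusted p = 0.0253), both eWAT libraries with epididymis genes (adjusted p = 0.0209), mouse ko 3 (adjusted p = 0.0277) or wt 2 (adjusted p = 0.0149). Without all 4 libraries with genes of another tissue the Slc25a1 difference was 0.37 (adjusted p = 0.219), and with library totals it was 0.0012 (adjusted p = 0.997). All 6 tested genes of mitochondrial fatty acid synthesis, Mcat, Oxsm, Mecr, Cbr4, Acsf3 and Ndufab1, were higher in iBAT in both comparisons, by 0.85 to 2.37 and 0.89 to 2.63 on the log2 scale, and 5 of them, without Oxsm, were so with library totals too. In the fit of all 18 libraries 0 of these 6 were called between the white tissues, and without all 4 libraries with genes of another tissue Acsf3 was higher in iWAT (0.45, adjusted p = 0.0303).

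Of the 6 genes of elongation and desaturation, 2 were higher and 1 was lower in iBAT than in iWAT, 2 were higher and 2 lower in iBAT than in eWAT, and 2 were higher and 2 lower in iWAT than in eWAT. The 2 higher were the elongases Elovl6 and Elovl5. Elovl5 differed by 0.99 and 1.49 in the comparisons with iBAT (edgeR adjusted p = 4.65e-05 and 4.69e-07) and by 0.50 between the white tissues (adjusted p = 0.0460), a call that was lost without eWAT ko 3 (0.39, adjusted p = 0.0725), both eWAT libraries with epididymis genes (adjusted p = 0.0906), the 3 iWAT libraries with keratin genes (adjusted p = 0.165) or any 1 mouse but wt 3 (adjusted p = 0.0599 to 0.180), and kept without all 4 libraries with genes of another tissue (0.55, adjusted p = 0.0147). With library totals Elovl5 was called against eWAT (0.64) and not against iWAT (0.19, adjusted p = 0.233). Elovl6, which extends palmitate, was at 1013 to 1716 CPM in iBAT, against 32.02 to 333 in iWAT and 22.03 to 52.9 in eWAT, and its log2 differences were 2.63, 5.36 and 2.73 for iBAT minus iWAT, iBAT minus eWAT and iWAT minus eWAT (edgeR adjusted p = 2.1e-05, 2.22e-08 and 0.000232). The delta-5 desaturase gene Fads1 went the other way, at 20.9 to 23.7 CPM in iBAT, against 42.9 to 120 in iWAT and 137 to 236 in eWAT. It was lower in iBAT by -1.90 and -2.96 and lower in iWAT than in eWAT by -1.06 (adjusted p = 1.33e-06, 9.14e-09 and 0.00362). Fads2 did not pass between iBAT and iWAT (-0.52, adjusted p = 0.490) and was lower in iBAT than in eWAT (-2.30, adjusted p = 0.00663), with 331 CPM in eWAT ko 3 and a tissue median of 20.7. Without that library the Fads2 difference was -0.96 (adjusted p = 0.0125). Fads2 was at 60.1 CPM in eWAT wt 1, which also held epididymis genes, and without both libraries it was -0.49 (adjusted p = 0.0410), while the difference between iBAT and iWAT was -0.54 and passed (adjusted p = 0.0134). Scd3 was called lower in iWAT than in eWAT (-2.64, adjusted p = 0.0417), and without eWAT ko 3 its difference was -0.93 (adjusted p = 0.273).

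Among 12 regulators, 5 were higher in iBAT and none lower in each comparison with TMM, whereas with library totals 1 was higher and 8 lower than in iWAT, and 2 were higher and 7 lower than in eWAT, beside the shares of all genes given above for that scale. Ppargc1b was higher on both scales. The coactivator Ppargc1b was at 62.0 to 132 CPM in iBAT and at most 10.3 in the white libraries (log2 3.76 and 4.07, edgeR adjusted p = 1.58e-08 and 4.92e-09). Mlx, the partner of ChREBP, was higher by 0.46 and 0.98 (adjusted p = 0.0143 and 2.93e-05) and was the 1 regulator called between iWAT and eWAT in the fit of all 18 libraries (0.52, adjusted p = 0.0328). That last call was lost without eWAT ko 3 (0.47, adjusted p = 0.0616), without both eWAT libraries with epididymis genes (adjusted p = 0.133), without the 3 iWAT libraries with keratin genes (adjusted p = 0.0773) and in 5 of the 6 fits that left out 1 mouse, all but that without wt 3 (adjusted p = 0.0553 to 0.111). Without all 4 libraries with genes of another tissue it was kept (0.62, adjusted p = 0.0344), and Insig1 and Usf2 were called beside it (1.27 and 0.30, adjusted p = 0.0247 and 0.0391). The Mlx difference between iBAT and iWAT was lost without those 4 libraries (0.31, adjusted p = 0.168), without the 3 with keratin genes (0.36, adjusted p = 0.166) and without mouse ko 1 (adjusted p = 0.0648), and with library totals the iBAT level of Mlx was below that of iWAT (-0.34, adjusted p = 0.0224). Insig1, which retains SREBP in the endoplasmic reticulum, was higher by 1.03 and 2.17 (adjusted p = 0.0391 and 0.000312), and with library totals the first was not called (0.27, adjusted p = 0.486). The first was also lost without ko 1, ko 2, wt 1 or wt 3 (adjusted p = 0.0517 to 0.113), without those 4 libraries (0.73, adjusted p = 0.0897) and without the 3 with keratin genes (0.51, adjusted p = 0.344). Srebf2, Scap, Mbtps1, Mbtps2, Insig2, Usf1 and Nr1h3 were not called between any tissues with TMM in the fit of all 18 libraries. Without eWAT ko 3, the library that held epididymis transcripts, Scap, the escort protein of SREBP, was called higher in iBAT than in iWAT (0.39, adjusted p = 9.74e-05) and in eWAT (0.38, adjusted p = 0.000219). Without all 4 libraries, Insig2 was called lower in iBAT than in eWAT (-0.30, adjusted p = 0.011), and without mouse ko 1 or wt 1 the iBAT level of Usf1 was called below that of iWAT (adjusted p = 0.039 and 0.047). Of 7 genes that act on carboxylase or malonyl-CoA, Thrsp, Mlycd, Prkaa2 and Prkab1 were higher in iBAT in both comparisons and Prkab2 was lower (-0.96 and -0.61), the second of which was lost without mouse wt 1 (adjusted p = 0.0518). Of the genes of glucose entry, the transporter Slc2a4 (log2 1.83 and 2.37), Hk2 (2.29 and 2.24) and Akt2 (0.78 and 0.96) were called higher in iBAT in both. With library totals Hk2 and Slc2a4 were still called, and Akt2 (0.0052 and 0.11) was not. Akt2 was also not called between iBAT and iWAT without the 3 iWAT libraries with keratin genes (0.45, adjusted p = 0.146). With regard to genotype, 0 of the 41 genes were called by edgeR, DESeq2 or limma voom, and an unadjusted edgeR p under 0.05 was found for 4 of the 41 in eWAT (9.76%, beside 4.35% of all genes), for 1 in iWAT (2.44%, beside 2.22%) and for 0 across tissues, in iBAT and for the interaction (beside 2.19%, 1.27% and 1.41%). The 4 in eWAT, named after their values were seen, were Mid1ip1, Fads2, Scd3 and Scap, and without eWAT ko 3, the library with epididymis genes, there were 0.

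**Figure D5:**
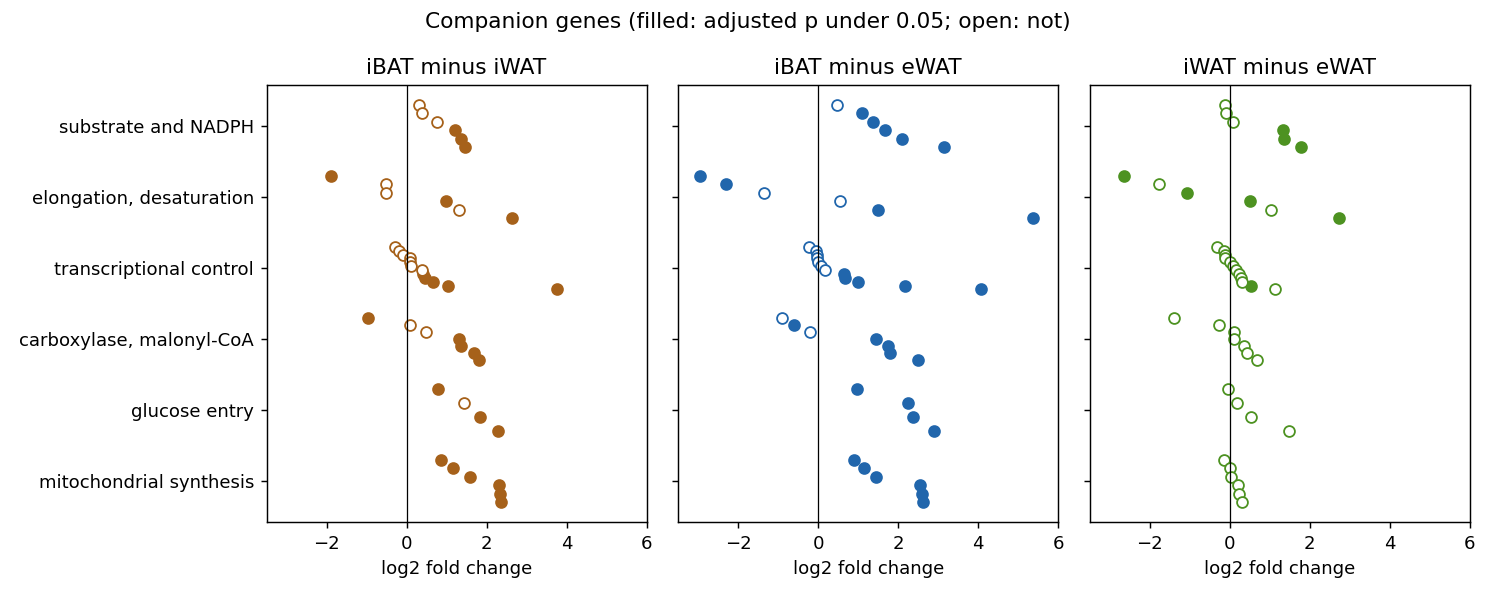
Log2 fold changes between tissues of 41 genes around the pathway, 1 point per gene, in 6 groups ordered by size within each, with filled points for an edgeR adjusted p under 0.05. Most filled points lie to the right in both comparisons with iBAT, and the group of elongation and desaturation spreads to both sides in all 3 panels.

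The genes most like each of the 8 over the 18 libraries were Elovl6 for Acly (Pearson r of log2 CPM 0.987), Tkt for Acaca (0.992), Oplah for Acacb (0.988), Ucp3, Paqr9, Acss2, Rtn4 and Eif4e3 for Fasn (0.983 to 0.981), Rnf10 for Scd1 (0.965), Sqle for Scd2 (0.933), Zfp703 for Srebf1 (0.852) and Yaf2 for Mlxipl (0.992). With the tissue means removed they were Eif4g1 for Acly (0.935), Aldh1l1 for Acaca (0.981), Oplah again for Acacb (0.927), Acss2, Hsd17b4, Gbe1, Tmem179 and Nfix for Fasn (0.963 to 0.955), Nfix for Scd1 (0.968), Sqle again for Scd2 (0.919), B230206L02Rik for Srebf1 (0.918) and Aldh2 for Mlxipl (0.968). Acss2 was thus the 1 gene among the 5 most like Fasn on both scales. Sqle encodes squalene epoxidase of the sterol pathway. These are descriptions over libraries that share mice, tissue and depth.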

How the data were processed

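Estimated counts per gene were deposited by the authors as whole numbers without normalisation. Per the labels, the processing tools were bcl2fastq, cutadapt, Salmon and DESeq2, with build GRCm38. The study's methods name cutadapt for trimming and Salmon against GENCODE transcripts, or these with RNAcentral, without saying which gave this table. The strand setting is not given in the sources used here. Salmon divides reads shared between similar genes by a model. After filterByExpr by group and TMM scaling, edgeR 4.0.16 (R 4.3.3) gave quasi-likelihood F-tests for each gene. A model of tissue and genotype gave the tissue contrasts and the genotype effect across tissues, and a model of 6 group means gave the genotype effect within tissues and the interaction. P-values were adjusted by Benjamini-Hochberg over all 18728 genes, with a threshold of 0.05, and SE is the absolute log2 fold change over the square root of F. Ratios were tested as log2 of counts plus 0.5 by two-sided exact permutation. Mouse identifiers in the labels pair the tissues. Deviations from group means correlated between tissues of a mouse by -0.165 to 0.326. Replicate numbers did not pair wild type with knockout mice. The labels do not name litters. The genotype tests within a tissue used 1 estimate of the spread over all 6 groups. Their p-values are therefore not specific to the spread between mice in that tissue. Contrasts between tissues treat libraries of a mouse as separate, except with the block, which was the mouse there. For genotype effects the block was the replicate number, so libraries of a mouse were separate in every such fit. Positions were taken from GENCODE M21, and promoters from RefSeq. Alternatives were the size factors of DESeq2, TMM without mitochondrial genes, 2 other filters, DESeq2 1.42.0, limma 3.58.1 voom, the replicate block, 1 genotype only, a pseudocount of 5, and leaving out each mouse. Fits without libraries with genes of another tissue and fits with library totals were added after seeing the data. The functions were tested on simulated data. The 8 genes and all lists were chosen with earlier results of these data known. Named genes are the 8, the companion and marker lists, Gm15551 and the genes most like each of the 8. Pseudogenes and neighbours were named for shared sequence. The values of 1 listed gene are not reported here.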

Additional observations from a re-analysis of the deposited data

Results flagged for a closer look

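In the comparison of each library with the 5 others of its tissue, 2 of 33 sets of values had a library farther from its neighbour than Dixon's test allows at the 95% level, and chance alone gives about 1 in 20. Both were the iBAT library of mouse ko 1. Its Acaca level of 4980 CPM stood above the next of 4237 CPM, a gap of 0.676 of the range of the tissue. Its log2 ratio of Mlxipl to Srebf1, 1.23, stood above the next of 0.49, a gap of 0.691 of the range, and this library held the lowest Srebf1 of iBAT (328 CPM) beside the highest Mlxipl (772 CPM).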

How the results depend on the processing

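The counts of 6, 6 and 2 of the 8 genes were compared under each alternative. Both counts for iBAT were within 1.5 times under every alternative, although with library totals they held 5 higher and 1 lower gene. The 2 genes called between iWAT and eWAT became 4 with DESeq2, limma voom, library totals or without the lymph node libraries, 5 without all 4 libraries with genes of another tissue, 0 within either genotype and 1 to 4 without any 1 mouse. Of the companion genes, the 8 called between iWAT and eWAT became 5 without the filter, 0 in wild type and 1 in knockout libraries only, 14 without all 4 libraries, 4 without both eWAT libraries with epididymis genes and 2 to 7 without 1 mouse. Library totals and all fits without libraries with genes of another tissue were chosen after seeing the data.

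With the mouse as a replicate block, the called ratio differences of -0.65, 0.95, 1.93 and 1.85 had an adjusted p of 0.0703, and Scd2 between iWAT and eWAT turned to -0.14. In the fits the block changed no call of the 8 genes, but for genotype effects it was the replicate number and not the mouse. In wild type libraries the 4 differences were -0.80, 1.22, 1.86 and 1.501, and in knockout libraries -0.51, 0.67, 1.99 and 2.21, where 3 against 3 cannot reach the threshold. Between iWAT and eWAT, the Scd1 to Scd2 and Mlxipl to Srebf1 ratios were 0.64 and 0.21 in knockout libraries, against -0.23 and -0.073 in all. The Acaca and Scd1 ratios between iBAT and iWAT were -0.66 and 0.80 without the lymph node libraries (exact permutation adjusted p = 0.0857 for both). They were -0.58 and 0.97 without the muscle library (0.0519 and 0.0584) and -0.53 and 0.80 without all 4 (0.214 for both), so neither was called in these fits. Without all 4 the Mlxipl to Srebf1 ratio was 1.67 (adjusted p = 0.107). The Mlxipl to Srebf1 ratio between iWAT and eWAT was 0.16 without the lymph node libraries and 0.067 without all 4. Without the 3 iWAT libraries with keratin genes, the Acaca, Scd1 and Mlxipl ratios between iBAT and iWAT were -0.87, 1.04 and 1.74, and the Mlxipl ratio between iWAT and eWAT was 0.12. Without 1 mouse, Acaca to Acacb ranged from -0.75 to -0.56, from -0.17 to 0.14 and from 0.56 to 0.73 for iBAT minus iWAT, iBAT minus eWAT and iWAT minus eWAT. Scd1 to Scd2 ranged from 0.69 to 1.03 for iBAT minus iWAT and from -0.78 to 0.10 for iWAT minus eWAT, where Mlxipl to Srebf1 ranged from -0.26 to 0.093.

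Small differences changed sign, all without a call unless named. Srebf1 between iBAT and iWAT was -0.0092 in knockout libraries, -0.063 without the lymph node libraries, -0.14 without all 4, -0.68 with library totals (called) and -0.041 to 0.19 without 1 mouse. With library totals, Srebf1 against eWAT was -0.45 (called) and Scd2 was -0.17 and -0.24 in the comparisons with iBAT. Between iWAT and eWAT, Scd1 was 0.22 in knockout libraries, 0.26 without the lymph node libraries and -0.30 to 0.17 without 1 mouse, and Scd2 was -0.27 in knockout libraries, -0.22 without the muscle library, -0.072 with library totals and -0.16 to 0.44 without 1 mouse. Across tissues, knockout minus wild type without 1 mouse ranged from -0.16 to 0.37 for Acly, -0.14 to 0.31 for Acaca, -0.027 to 0.28 for Acacb, -0.30 to 0.47 for Fasn, -0.12 to 0.46 for Scd1, -0.19 to 0.58 for Scd2, -0.17 to 0.067 for Srebf1 and -0.24 to 0.065 for Mlxipl. With voom it was -0.021 for Acaca, -0.0023 for Fasn and -0.0034 for Scd2. Without the lymph node libraries it was -0.049 for Acaca and -0.032 for Acacb, for Scd2 it was -0.037 without the muscle library and -0.16 without all 4, and for Mlxipl it was 0.012 without the epididymis library. Without the 3 iWAT libraries with keratin genes, Scd2 and Srebf1 between iBAT and iWAT were -0.062 and -0.049, Scd1 between iWAT and eWAT 0.43, and knockout minus wild type -0.057 for Acaca and -0.18 for Acacb. The causes were not tested. With 3 mice of each genotype, differences near the standard errors could not be called.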
